A study of Oryctolagus cuniculus with 6 samples.

Results

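In rabbit ear scars compared at day 21, 59 of the 133 long noncoding RNA (lncRNA) transcripts in the authors' deposited table had reads in every rabbit. They were chosen by that detection alone: a value above 0 in each of the 6 libraries. The libraries came from hypertrophic scars of 6 female New Zealand White rabbits, whose age the labels do not give. The ADSC-Exos arm had 3 rabbits whose ear wounds received ADSC-Exos, exosomes (small secreted vesicles) made by adipose-derived stem cells, as 100 µg per 2 ml. The control arm had 3 rabbits whose wounds received saline. Both arms shared the same surgery, 6 full-thickness wounds on the ventral side of each ear, and antibiotics and analgesics afterwards. The series text puts the applications in the first 3 days after injury, while the labels speak of 21 days. Nothing in the labels says whether several wounds were pooled for 1 library.

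LncRNAs are transcripts with no recognised protein product. Some act on the gene beside which they are made, some guide chromatin complexes, and others bind proteins or small RNAs in the cytoplasm; for many, no function is known. In skin and scar tissue, lncRNAs such as H19 have been studied in fibroblasts. The transcripts described here are all annotated as predicted lncRNAs. Their identifiers carry the prefix MSTRG, which the assembler StringTie gives to loci it builds from reads, and the table pairs them with no gene symbol, position, strand, length or sequence. The first number of an identifier is the locus and the last is the transcript, so MSTRG.4370.5 and MSTRG.4370.17 come from 1 locus. The 59 transcripts came from 57 loci.

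Every row of the table had been selected by the authors for an absolute log2 difference over 1 and a p under 0.05 between these same rabbits, so a difference between the arms is a condition of being listed. Reads in the 133 listed lncRNAs ranged from 33593 to 47818 per rabbit, and the total depth of the libraries is unknown. The size factors by which reads were divided ranged from 0.890 to 1.18. ADSC-Exos rabbit 1 stood apart from the other treated rabbits for many of the 59, and values without it are given where it matters. Markers of other cell types in the deposited mRNA table also differed between rabbits. The listed macrophage markers, ATP6V0D2, MMP12 and MSR1 of 7 genes sought, were all listed higher, with summed normalized reads of 204 to 1767 in ADSC-Exos rabbits and 101 to 210 in controls, and ADSC-Exos rabbit 1 was the lowest of its arm. The 3 listed erythrocyte genes of 12 (HBB2, ALAS2 and CA1), all listed lower, summed to 3633 to 6924 in ADSC-Exos rabbits and 9701 to 37337 in controls. The 3 listed cartilage genes of 10 (COL10A1, EPYC and SCRG1), 1 listed higher and 2 lower, summed to 2907 to 5979 in ADSC-Exos rabbits and 8541 to 23278 in controls. Keratinocyte markers (2 of 9 genes, S100A8 and TGM5, with 3 transcripts, 1 listed higher and 2 lower) summed to 1443 to 6217 in ADSC-Exos rabbits and 1124 to 3166 in controls. Striated muscle markers (3 of 13, MYH1, MYH7 and TNNT2, 1 listed higher and 2 lower) summed to 51.7 to 185 in ADSC-Exos rabbits and 39.3 to 275 in controls. Of 8 fibroblast genes only CTHRC1 was listed, at 0, 88.1 and 402 normalized reads in ADSC-Exos rabbits 1 to 3 and 7.60, 11.99 and 1.12 in controls, so the levels of the other markers that define scar fibroblasts were not analysed here. The part of these cell types in the lncRNA differences was not tested, and in bulk tissue fewer cells of a type and less RNA per cell cannot be told apart.

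The 59 lncRNAs spanned a wide range of counting depth. Summed over the 6 rabbits, they had 45 to 33840 reads, with a median of 466, beside a median of 104.5 for the 74 other lncRNAs in the table. The 3 most counted, MSTRG.4370.17, MSTRG.6183.1 and MSTRG.8344.5, held 51.3% of the reads of all 59. Lengths are not given, so these are counts and not levels that can be compared between transcripts. All 6 rabbits had at least 100 reads for 16 of the transcripts and at least 10 reads for 41. At the edge of the rule, 1 transcript had a single read in its lowest rabbit. This was MSTRG.10180.1, with 3, 1 and 5 reads in ADSC-Exos rabbits 1 to 3 and 8, 5 and 23 in control rabbits 1 to 3, and its difference of -1.56 was -0.90 without control rabbit 3. Just outside it, 13 transcripts had no reads in exactly 1 rabbit. The most counted of these was MSTRG.4370.2, with 1696, 8 and 5 reads in ADSC-Exos rabbits and 44, 0 and 8 in controls. MSTRG.3828.2 had 1, 1 and 1 reads in ADSC-Exos rabbits and 382, 0 and 482 in controls.

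Summed over all 59, reads came to 24197, 35489 and 37618 in ADSC-Exos rabbits 1 to 3, against 24754, 18511 and 21988 in control rabbits 1 to 3. After division by the size factors the sums were 32773 ± 7655 in ADSC-Exos and 21376 ± 3130 in control scars (SD, n = 3 each). Without the 3 most counted transcripts the sums were 9558, 19569 and 18609 normalized reads in ADSC-Exos rabbits and 9924, 8359 and 13241 in controls. ADSC-Exos rabbits 2 and 3 were then above every control, and rabbit 1 was within the control range. The 74 other listed lncRNAs, which had no reads in at least 1 rabbit, went the other way. Their sums were 10296 ± 1894 normalized reads in ADSC-Exos and 21323 ± 7878 in control scars (SD, n = 3 each). The higher sum of the 59 is therefore not a rise over all listed lncRNAs.

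More of the 59 were listed higher than lower in ADSC-Exos scars. Higher values were listed for 40 (67.8%) and lower ones for 19 (32.2%), beside 55.6% higher and 44.4% lower over the whole lncRNA table. Values are log2(normalized reads + 1), a difference is the ADSC-Exos mean minus the control mean, and its standard error (SE) comes from the spread over 3 rabbits per arm. Differences ran from 1.00 to 3.22 among the higher transcripts, with a median of 1.56, and the median was -1.56 among the lower ones. Over the whole table the medians were 2.08 for higher and -2.46 for lower transcripts, which include those silent in 1 arm. In the authors' deposited table, 13 of the 59 (22.0%) had an FDR, the p adjusted for the number of transcripts tested, under 0.05. The share over the whole lncRNA table was 32.3%. These 13 were 7 higher and 6 lower, beside 14.3% called higher and 18.0% called lower of all listed lncRNAs. The arms did not overlap for 30 of the 59, 17 higher and 13 lower, a share of 50.8%, beside 33.1% over the table (17.3% higher and 15.8% lower). Both an FDR under 0.05 and arms apart held for 12 of the 59, 6 higher and 6 lower, beside 14.3% of the whole table (6.77% higher and 7.52% lower). The rule had left out the 19 transcripts with reads in 1 rabbit only and the 15 with no reads in 4 rabbits, whose arms cannot be apart. The same holds for any other left-out transcript with no reads in a rabbit of each arm.

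A test with limma, fitted on all 133 lncRNAs, called 0 of the 59 when adjusted over the 17743 transcripts the authors appear to have tested, and 0 when adjusted over the 133 listed rows (smallest adjusted p = 0.17). The first adjustment gave unlisted transcripts the highest possible p. It is so strict that its 0 calls do not show that differences are absent. In the same fit the rates for all 133 lncRNAs were 0.00% and 0.752%. Over the listed rows, 36 of the 59 passed when ADSC-Exos rabbit 1 was left out, beside 39.1% of all 133. When ADSC-Exos rabbit 3 was left out 1 passed, beside 1.50% of all 133, and with quantile normalization 2 did, beside 2.26%. With the rabbit number added to the fit as a block 8 passed, beside 9.77%, though no pairing of same-numbered rabbits was assumed. At an unadjusted limma p under 0.05 there were 19 of the 59 (32.2%), 11 higher and 8 lower, beside 27.8% of all listed lncRNAs (13.5% higher and 14.3% lower). Removal of ADSC-Exos rabbit 1 brought this number to 41, while removal of ADSC-Exos rabbits 2 and 3 and control rabbits 1, 2 and 3 in turn brought it to 10, 10, 12, 12 and 9. Over all 133 lncRNAs the number was 63 (47.4%) without ADSC-Exos rabbit 1, and 19, 19, 20, 23 and 20 in the other removals. All of these values come after the authors' selection on the same rabbits, so none is independent of it.

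**Figure D1:**
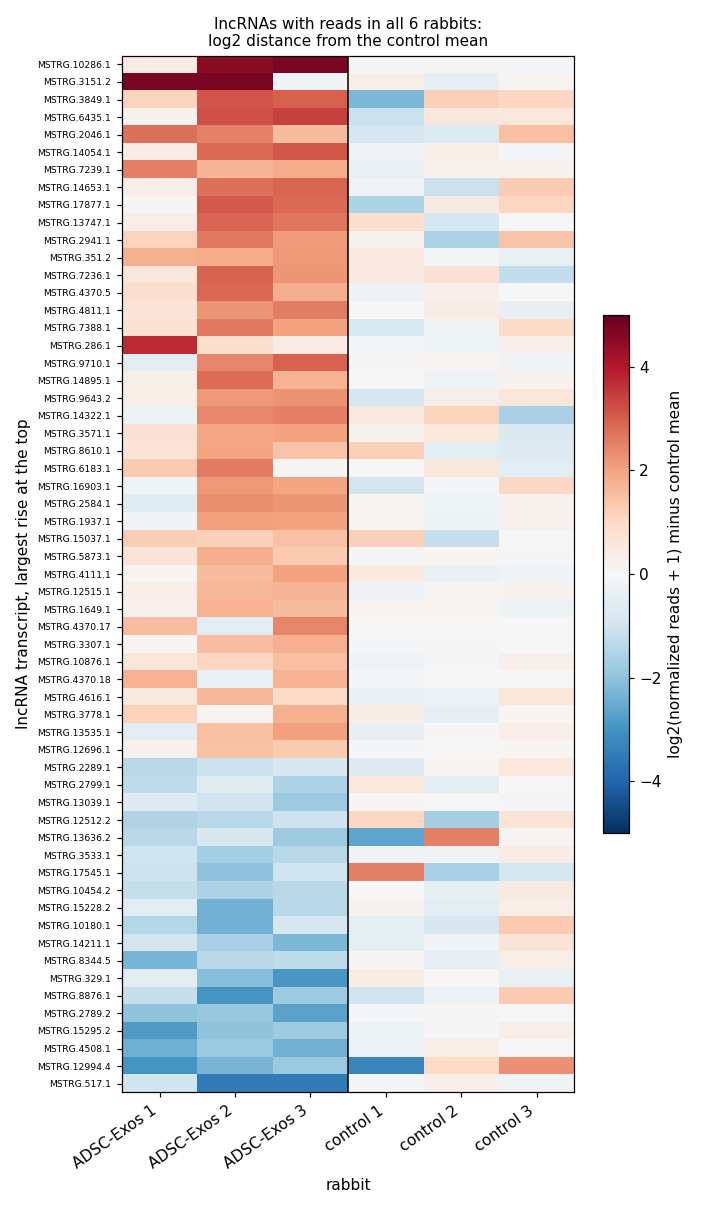
Each row is 1 of the 59 lncRNAs and each column 1 rabbit, with ADSC-Exos rabbits left of the line, and colour gives log2(normalized reads + 1) minus the mean of the 3 controls. Rows run from the largest difference at the top (MSTRG.10286.1, 3.22) to the lowest at the bottom (MSTRG.517.1, -2.66), and the ADSC-Exos rabbit 1 column is paler than those of rabbits 2 and 3 for most of the 40 higher transcripts.

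The 7 transcripts called higher in the authors' deposited table differed in how evenly the treated rabbits shared the increase, with SDs of 0.20 to 2.85 in the ADSC-Exos arm. These SDs are of the log2 values. MSTRG.351.2 had the smallest SD of the 7. It had 58, 60 and 74 reads in ADSC-Exos rabbits 1 to 3, against 27, 15 and 11 reads in control rabbits 1 to 3. It was at 6.03 ± 0.20 in ADSC-Exos and 4.10 ± 0.43 in control scars (SD, n = 3 each), a difference of 1.92 (SE 0.27), and its FDR in the authors' deposited table was 0.000117. The treated rabbits lay close together, and the lowest of them was above the highest control.

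MSTRG.7239.1, a less counted transcript, behaved likewise. It had 44, 24 and 27 reads in ADSC-Exos rabbits and 6, 8 and 7 in controls. Its difference was 2.02 (SE 0.31), with an FDR of 0.00997 in the authors' deposited table, and here rabbit 1 was the highest treated rabbit. MSTRG.4370.5, from a locus with 6 listed transcripts, had 759, 3017 and 1438 reads in ADSC-Exos rabbits and 415, 497 and 371 in controls. The controls were tight and every treated rabbit was above them, with a difference of 1.84 (SE 0.60) and an FDR of 0.00187 in the authors' deposited table.

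In 3 further calls, ADSC-Exos rabbit 1 was above the controls by little. MSTRG.10286.1, within 3 kb of a transcript of PCTP, the phosphatidylcholine transfer protein gene, had 10, 185 and 206 reads in ADSC-Exos rabbits and 8, 8 and 6 in controls. Rabbits 2 and 3 were far above every control, and rabbit 1 was above them by 2 reads before division. The difference of 3.22 (SE 1.40) is the largest of the 59, with an FDR of 0.00158 in the authors' deposited table, and it was 4.61 without rabbit 1. MSTRG.14054.1, within 3 kb of a transcript of RIN2, a Ras and Rab interactor gene, had 53, 288 and 347 reads in ADSC-Exos rabbits and 42, 49 and 33 in controls. Its difference was 2.11 (SE 0.88), its FDR 0.0152 in the authors' deposited table, and without rabbit 1 the difference was 2.97. MSTRG.14895.1 had 211, 1181 and 562 reads in ADSC-Exos rabbits, against 208, 148 and 174 in controls. Reads of rabbit 1 and control rabbit 1 were nearly equal, and the arms were apart after division by the size factors. The difference was 1.60 (SE 0.74), the FDR was 0.0488 in the authors' deposited table, and the difference 1.01 without ADSC-Exos rabbit 2.

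MSTRG.3151.2, within 3 kb of a transcript of LRRC1, a leucine-rich repeat gene, had the other pattern. It had 1431, 1432 and 45 reads in ADSC-Exos rabbits and 78, 38 and 52 in controls. Rabbits 1 and 2 were far above the controls, rabbit 3 was among them, and the arms overlapped. The difference was 3.10 (SE 1.66), with an FDR of 0.0464 in the authors' deposited table, and it was 4.74 without ADSC-Exos rabbit 3.

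For the 6 transcripts called lower in the authors' deposited table the arms did not overlap, and the SDs of the log2 values in the ADSC-Exos arm were 0.19 to 0.59. MSTRG.2789.2 had 51, 54 and 31 reads in ADSC-Exos rabbits, against 236, 213 and 184 in controls. It was at 5.51 ± 0.42 in ADSC-Exos and 7.70 ± 0.05 in control scars (SD, n = 3 each), a difference of -2.19 (SE 0.24). Its FDR in the authors' deposited table, 5.09e-14, was the smallest of the 59. So was its unadjusted limma p of 0.0028. Adjusted over the listed lncRNAs that p was 0.17, a value it shared with other transcripts. MSTRG.15295.2 had 62, 108 and 127 reads in ADSC-Exos rabbits and 443, 425 and 500 in controls. Each treated rabbit was well below each control, with a difference of -2.21 (SE 0.36) and an FDR of 2.55e-08 in the authors' deposited table.

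MSTRG.4508.1, the least counted of the calls, had 3, 5 and 3 reads in ADSC-Exos rabbits and 20, 26 and 18 in controls. Its difference was -2.24 (SE 0.26) and its FDR in the authors' deposited table was 0.0197. The treated values rest on few reads each, so counting error is large beside them. The most counted was MSTRG.8344.5, at 1155, 2206 and 2386 reads in ADSC-Exos rabbits and 7283, 4425 and 6393 in controls. It differed by -1.66 (SE 0.40), with an FDR of 0.000149 in the authors' deposited table, and without ADSC-Exos rabbit 1, its lowest rabbit, by -1.32.

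MSTRG.10454.2 and MSTRG.3533.1 had the smallest differences of the 6. MSTRG.10454.2 had 584, 443 and 501 reads in ADSC-Exos rabbits and 1555, 968 and 1616 in controls, a difference of -1.37 (SE 0.28) with an FDR of 1.7e-05 in the authors' deposited table. MSTRG.3533.1 had 47, 28 and 35 reads in ADSC-Exos rabbits and 97, 84 and 107 in controls, a difference of -1.35 (SE 0.27) with an FDR of 0.00852 in the authors' deposited table. In both, the highest treated rabbit was clearly below the lowest control.

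**Figure D2:**
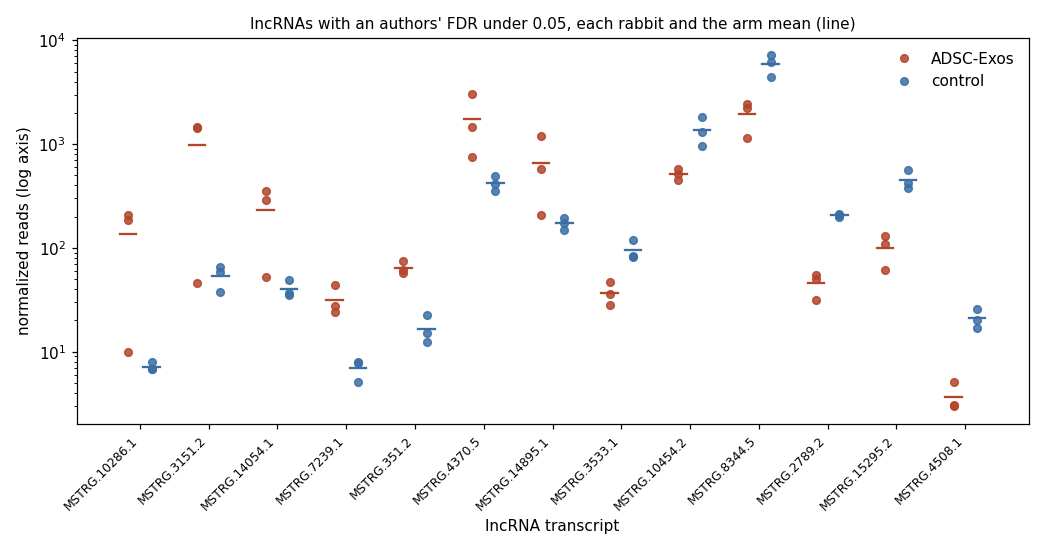
Normalized reads on a log axis for the 13 lncRNAs with an FDR under 0.05 in the authors' deposited table, ordered by their difference, with each rabbit as a point and the arm mean as a line, ADSC-Exos left of control. The arms are apart for all but MSTRG.3151.2, whose ADSC-Exos rabbit 3 (45 reads) lies among the controls.

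Among the 10 transcripts with the most reads, 3 are calls described above, and most of the other 7 turned on single rabbits. MSTRG.4370.17 had 8365, 1939 and 14887 reads in ADSC-Exos rabbits and 3326, 2751 and 2572 in controls. Rabbits 1 and 3 were above the controls and rabbit 2 was below them. Leaving out ADSC-Exos rabbit 2 gave 2.00, and leaving out rabbit 3 gave 0.52, in place of the difference of 1.16 (SE 0.88). MSTRG.4370.18, of the same locus, followed the same rabbits, with 1643, 372 and 1590 reads in ADSC-Exos rabbits and 559, 491 and 440 in controls. Its difference of 1.04 (SE 0.70) was 0.68, 1.74 and 0.69 without ADSC-Exos rabbits 1, 2 and 3.

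MSTRG.6183.1, within 3 kb of a transcript of P3H2, which encodes a collagen prolyl 3-hydroxylase, had 5059, 12009 and 2093 reads in ADSC-Exos rabbits. In controls it had 2400, 2972 and 1241 reads. The arms overlapped through ADSC-Exos rabbit 3, and the difference of 1.32 (SE 0.79) was 0.69 without ADSC-Exos rabbit 2. MSTRG.13535.1 had 352, 1436 and 2092 reads in ADSC-Exos rabbits and 461, 538 and 567 in controls. Rabbit 1 was below every control, and the difference of 1.01 (SE 0.82) was 1.78 without it and 0.48 without ADSC-Exos rabbit 3. MSTRG.3307.1 had 531, 1444 and 1669 reads in ADSC-Exos rabbits and 543, 521 and 451 in controls, with arms apart only after division by the size factors and a difference of 1.14 (SE 0.53).

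The other 2 of the 10 were listed lower, and their spread was in the controls. MSTRG.12512.2, within 3 kb of a transcript of MED13L, a gene of the Mediator complex of transcription, had 524, 547 and 703 reads in ADSC-Exos rabbits and 3616, 446 and 2032 in controls. Control rabbit 2 was below all treated rabbits, and the difference of -1.30 (SE 0.87) was -0.77 without control rabbit 1 and -2.16 without control rabbit 2. MSTRG.12994.4, within 3 kb of a transcript of EBF1, a transcription factor of B cells and fat precursors, had 67, 104 and 144 reads in ADSC-Exos rabbits and 63, 1072 and 2325 in controls. Control rabbit 1 was the lowest of the 6 rabbits, and the difference of -2.39 (SE 1.72) was -4.04 without control rabbit 1 and -1.24 without control rabbit 3.

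**Figure D3:**
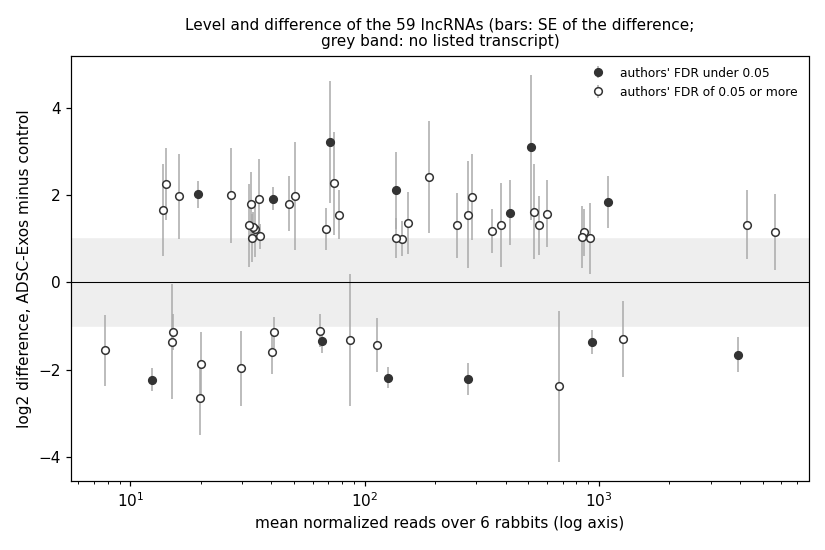
Mean normalized reads over the 6 rabbits (log axis) against the log2 difference, ADSC-Exos minus control, with the SE of the difference as bars, for the 59 lncRNAs. Filled points have an FDR under 0.05 in the authors' deposited table. They run from MSTRG.4508.1 to MSTRG.8344.5 along the count axis, with open points beyond both ends. No point lies in the grey band between -1 and 1, which the authors' selection left empty.

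The spread between rabbits of an arm differed between higher and lower transcripts. The median SD of the log2 values was 0.92 in the ADSC-Exos arm and 0.43 in the control arm over the 59, and 44 of them had the larger SD in the ADSC-Exos arm. Over all 133 listed lncRNAs the median SD was 1.12 in the ADSC-Exos arm and 0.89 in the control arm, and 85 had the larger SD in the ADSC-Exos arm. For the 40 higher transcripts the medians were 1.10 in the ADSC-Exos arm and 0.42 in the control arm, beside 1.51 in the ADSC-Exos arm and 0.34 in the control arm for all lncRNAs listed higher. For the 19 lower ones they were 0.57 in the ADSC-Exos arm and 0.45 in the control arm, beside 0.57 in the ADSC-Exos arm and 2.21 in the control arm for all listed lower. Over the whole table the larger median SD was thus in the arm where the transcripts were higher.

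Among the 40 higher transcripts ADSC-Exos rabbits 1, 2 and 3 stood at a median log2 distance of 0.51, 2.17 and 2.00 above the mean of the controls. For 31 of them rabbit 1 was the least of the treated animals. Rabbit 1 was above every control for 22, rabbit 2 for 37 and rabbit 3 for 38. For 17 all 3 treated rabbits were above the controls, and for 18 only rabbits 2 and 3 were. For the remaining 5, rabbit 1 and 1 other rabbit were above: MSTRG.4370.17, MSTRG.4370.18 and MSTRG.3778.1 with rabbit 3 (the last at 0.63 without it, in place of 1.01), and MSTRG.3151.2 and MSTRG.6183.1 with rabbit 2. The 74 lncRNAs listed higher over the whole table had median distances of 0.66, 2.33 and 2.10 in ADSC-Exos rabbits 1, 2 and 3. Rabbit 1 was the least for 52 of the 74, and rabbits 1, 2 and 3 were above every control for 39, 62 and 60. All 3 treated rabbits were above for 23 of the 74, and only rabbits 2 and 3 for 29. The 40 are part of these 74. For the 34 others, each with no reads in at least 1 rabbit, the median distances were 1.40, 2.89 and 3.71 in ADSC-Exos rabbits 1, 2 and 3. Rabbit 1 was the least for 21 of the 34. All 3 treated rabbits were above every control for 6, and only rabbits 2 and 3 for 11. A lesser rise in rabbit 1 was thus not particular to the 40. Among the 19 lower transcripts the median distances were -1.25, -1.84 and -1.78 in ADSC-Exos rabbits 1, 2 and 3, and 13 had all treated rabbits below the controls. The lncRNAs listed lower over the whole table, also 59 in number, had median distances of -2.38, -2.46 and -2.67. All 3 treated rabbits were below every control for 21 of them. Without ADSC-Exos rabbit 1 the median difference was 2.03 for the 40 higher and -1.62 for the 19 lower transcripts. The number of transcripts with arms apart was then 35 of the higher and 14 of the lower, beside 57.9% of all 133 lncRNAs, and such a number cannot drop when an animal is removed. The mRNAs and lncRNAs were read from the same libraries, so a like pattern in the mRNAs is not separate evidence.

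Some transcripts with arms apart had large differences without a call in the authors' deposited table. MSTRG.517.1 had 16, 2 and 2 reads in ADSC-Exos rabbits and 37, 39 and 26 in controls. The difference was -2.66 (SE 0.84), with rabbit 1 nearest to the controls. MSTRG.2046.1 had 31, 25 and 13 reads in ADSC-Exos rabbits, against 2, 2 and 11 in controls. Its difference was 2.26 (SE 0.82), and control rabbit 3 came close to ADSC-Exos rabbit 3. MSTRG.8876.1 had 17, 4 and 10 reads in ADSC-Exos rabbits and 22, 31 and 86 in controls, a difference of -1.97 (SE 0.87). In each of these the lowest rabbits had few reads, and the FDR in the authors' deposited table was 0.229, 0.376 and 0.249 in the order given.

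Of the 59 transcripts, 8 came from 6 loci that had at least 1 other listed transcript. Reads of overlapping transcripts of 1 locus can be assigned to either by the counting, so the sum over the listed transcripts stands beside each. At the MSTRG.4370 locus, MSTRG.4370.5, MSTRG.4370.17 and MSTRG.4370.18 were listed higher. MSTRG.4370.12, which lacked reads in 4 rabbits, had 0, 0 and 0 reads in ADSC-Exos rabbits and 0, 19513 and 8166 in controls. MSTRG.4370.8 had 3073 reads in ADSC-Exos rabbit 2 and none elsewhere. The 6 listed transcripts together had 12463, 8409 and 17920 reads in ADSC-Exos rabbits and 4344, 23252 and 11557 in controls. The sums overlapped, with a difference of 0.27 (SE 0.85), and it was -0.48 without control rabbit 1, -0.01 without ADSC-Exos rabbit 3, 0.54 without ADSC-Exos rabbit 2, and 0.85 and 0.43 without control rabbits 2 and 3. Mean normalized reads, 13056 ± 4914 in ADSC-Exos and 13300 ± 9789 in control scars (SD, n = 3 each), had the opposite order to the log2 means.

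At the MSTRG.12994 locus the transcript with the most reads differed from rabbit to rabbit. MSTRG.12994.2 had 0, 0 and 0 reads in ADSC-Exos rabbits and 9906, 0 and 7035 in controls, and MSTRG.12994.3 had 3935 reads in ADSC-Exos rabbit 3 alone. The locus sums were 67, 104 and 4079 reads in ADSC-Exos rabbits and 9969, 1072 and 9360 in controls. Control rabbit 2 was the lowest control and lay below ADSC-Exos rabbit 3, so the sums overlapped, with a difference of -3.88 (SE 2.15). Control rabbit 1, the lowest rabbit for MSTRG.12994.4 at 63 reads, had the most reads over the locus before division.

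At the MSTRG.8344 locus the called fall of MSTRG.8344.5 stood beside MSTRG.8344.3, with 53, 4192 and 3405 reads in ADSC-Exos rabbits and none in controls. MSTRG.8344.4 and MSTRG.8344.6 had 3151 and 3349 reads in control rabbit 2 and none elsewhere. The sums were 1208, 6398 and 5791 reads in ADSC-Exos rabbits, against 7283, 10925 and 6393 in controls. After division by the size factors ADSC-Exos rabbit 2 was above control rabbit 1, so the sums overlapped, and the difference of -1.13 (SE 0.83) was -0.34 without ADSC-Exos rabbit 1.

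The remaining 3 loci each had 1 further listed transcript. MSTRG.15037.1 had 708, 676 and 815 reads in ADSC-Exos rabbits and 803, 134 and 258 in controls. Its arms were apart after division by the size factors, and its difference of 1.30 (SE 0.68) was 0.73 without control rabbit 2. With MSTRG.15037.2, which had 317 reads in ADSC-Exos rabbit 2 alone, the locus difference was 1.49 (SE 0.69), and 0.92 without control rabbit 2. MSTRG.10286.2 had 0, 24 and 104 reads in ADSC-Exos rabbits and none in controls, the same rabbits as MSTRG.10286.1, and the locus difference was 3.47 (SE 1.53). MSTRG.6183.2 had 2227 reads in control rabbit 1 alone, so the locus sum gave a difference of 1.00 (SE 0.85). That value was 0.37 and 1.63 when ADSC-Exos rabbits 2 and 3 were left out, and 0.57 when control rabbit 3 was.

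The table names protein-coding transcripts within 3 kb for 34 of the 59 lncRNAs (57.6%), beside 47.3% of the 74 others. Those with such a neighbour had a median of 903 reads over the 6 rabbits, those without it 201. Of the 34, 26 were listed higher and 8 lower. Of the 25 with no such neighbour, 14 were listed higher and 11 lower. Over the whole table the shares were 55.6% and 44.4%. The neighbours are given as 38 Ensembl transcript identifiers, of which the mRNA and circular RNA tables pair 10 with a symbol. The RefSeq gene table used here holds no Ensembl identifiers, so the other neighbours are not named.

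For 4 lncRNAs the neighbouring transcript is itself in the deposited mRNA table, so both can be read in the same rabbits. Both tables were selected on these rabbits, and the labels do not say whether the counting used strand. Where a lncRNA and its neighbour overlap, their reads cannot be told apart.

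MSTRG.4811.1 lies within 3 kb of a transcript of CYR61, which encodes a matrix-associated protein induced by YAP and by mechanical load. It had 29, 87 and 111 reads in ADSC-Exos rabbits and 22, 24 and 12 in controls, with arms apart and a difference of 1.81 (SE 0.64), and its FDR in the authors' deposited table was 0.0572. The CYR61 transcript had 3379, 13346 and 12176 reads in ADSC-Exos rabbits and 2244, 3681 and 3339 in controls, a difference of 1.48 (SE 0.73). Both were highest in ADSC-Exos rabbits 2 and 3. Set against its neighbour, the lncRNA had 8.58, 6.52 and 9.12 reads per 1000 CYR61 reads in ADSC-Exos rabbits and 9.80, 6.52 and 3.59 in controls, ranges that overlap.

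For MSTRG.10286.1 and PCTP the ratio was not stable. The PCTP transcript had 1233, 2416 and 4294 reads in ADSC-Exos rabbits and 1120, 1261 and 693 in controls, a difference of 1.27 (SE 0.57). Per 1000 PCTP reads the lncRNA had 8.11, 76.6 and 48.0 reads in ADSC-Exos rabbits and 7.14, 6.34 and 8.66 in controls. The lncRNA and the mRNA were thus both highest in ADSC-Exos rabbits 2 and 3, and the lncRNA was further from the controls than the mRNA in each of these rabbits.

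MSTRG.3571.1 neighbours a listed protein-coding transcript with no symbol and had about as many reads as it. The lncRNA had 60, 141 and 144 reads in ADSC-Exos rabbits and 49, 53 and 19 in controls, with a difference of 1.55 (SE 0.57). The mRNA had 42, 117 and 119 reads in ADSC-Exos rabbits and 43, 61 and 23 in controls, with a difference of 1.11 (SE 0.61). The lncRNA had 1429, 1205 and 1210 reads per 1000 of the mRNA in ADSC-Exos rabbits and 1140, 869 and 826 in controls, so the ratio was above every control in each treated rabbit.

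MSTRG.2289.1 is the 1 lower transcript of these pairs, beside NPR3, the clearance receptor for natriuretic peptides. It had 32, 38 and 47 reads in ADSC-Exos rabbits and 64, 93 and 108 in controls, a difference of -1.11 (SE 0.38). The NPR3 transcript had 516, 189 and 186 reads in ADSC-Exos rabbits and 613, 520 and 908 in controls, a difference of -1.29 (SE 0.58). The lncRNA was lowest in ADSC-Exos rabbit 1 and the mRNA in rabbits 2 and 3, so the pair did not share the order of the treated rabbits. Per 1000 NPR3 reads the lncRNA had 62.0, 201 and 253 reads in ADSC-Exos rabbits and 104, 179 and 119 in controls. None of the 3 lncRNAs MSTRG.4811.1, MSTRG.3571.1 and MSTRG.2289.1 was called in the authors' deposited table, and neither was any of the 4 mRNAs.

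**Figure D4:**
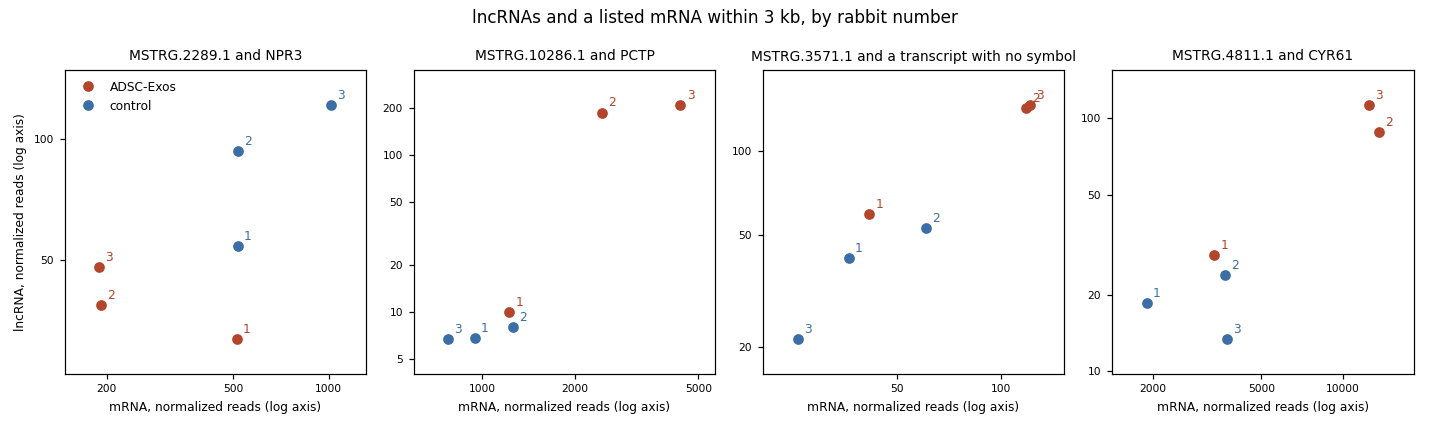
Normalized reads of 4 lncRNAs (vertical, log axis) against those of the listed mRNA within 3 kb (horizontal, log axis), 1 point per rabbit with its replicate number, for ADSC-Exos and control rabbits. ADSC-Exos rabbits 2 and 3 are at the upper right for PCTP, CYR61 and the transcript with no symbol, and ADSC-Exos rabbit 1 (10 lncRNA reads at the PCTP pair) is near the controls there.

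For 8 of the lncRNAs, a neighbouring gene also hosts a circular RNA, closed by back-splicing, in the deposited circRNA table. This places those neighbours on chromosomes 3 (EBF1), 4 (RIN2), 5 (PDPR), 11 (NPR3), 12 (LRRC1), 14 (P3H2), 17 (FMN1) and 21 (MED13L) of a genome build that the labels do not name. The circles had at most 8 reads in any rabbit. That of LRRC1 had 0, 1 and 3 reads in ADSC-Exos rabbits and 3, 4 and 8 in controls, while MSTRG.3151.2 was called higher. That of P3H2 had 0, 0 and 0 reads in ADSC-Exos rabbits and 1, 1 and 1 in controls. Such counts are too low to set a direction. The 2 neighbours not yet named belong to transcripts without a call. MSTRG.8610.1, beside FMN1, a formin gene of actin assembly, had 124, 301 and 209 reads in ADSC-Exos rabbits and 214, 52 and 44 in controls, a difference of 1.35 (SE 0.71). MSTRG.15228.2, beside PDPR, a regulator of pyruvate dehydrogenase phosphatase, had 110, 28 and 58 reads in ADSC-Exos rabbits and 209, 109 and 176 in controls, a difference of -1.44 (SE 0.61), and of -0.95 without ADSC-Exos rabbit 2. In both, the arms overlapped.

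The 32 transcripts outside the rule for named lncRNAs, MSTRG.8610.1 and MSTRG.15228.2 among them, had 45 to 3556 reads over the 6 rabbits. Their FDR in the authors' deposited table ran from 0.0938 to 0.631. None could be under 0.05, since the rule names every such transcript. Of these, 24 were higher, by differences of 1.00 to 2.42, and 8 were lower, by differences of -1.14 to -1.87. The arms did not overlap for 10 of the 32, beside 33.1% of the whole lncRNA table. The rule had already taken out the 10 largest differences with arms apart, so these shares cannot be compared. Several of the 32 rest on 1 rabbit, and the following were chosen after their values were seen. MSTRG.286.1 had 60, 7 and 5 reads in ADSC-Exos rabbits and 4, 3 and 4 in controls, and its difference of 1.65 (SE 1.05) was 0.62 without ADSC-Exos rabbit 1. MSTRG.17545.1 had 5, 2 and 5 reads in ADSC-Exos rabbits and 82, 3 and 5 in controls, and its difference of -1.36 (SE 1.32) was -0.10 without control rabbit 1 and -2.17 without control rabbit 2. MSTRG.13636.2 had 24, 36 and 17 reads in ADSC-Exos rabbits and 11, 366 and 62 in controls, and its difference of -1.32 (SE 1.52) was -0.07 without control rabbit 2 and -2.65 without control rabbit 1. In contrast, MSTRG.5873.1 had 30, 67 and 47 reads in ADSC-Exos rabbits and 21, 20 and 16 in controls, a difference of 1.27 (SE 0.34) with every treated rabbit above every control.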

How the data were processed

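Scar RNA of 6 rabbits was sequenced. DESeq2 1.30.1, HTSeq 2.0.3, STAR 2.7.6a, Trimmomatic 0.40 and FastQC 1.0.0 are named, without roles, per the submitters' processing notes. No build is named there, and the labels' protocol speaks of adaptors for small RNAs. The authors deposited log2 values, their log2 fold changes, and p-values with an FDR from a test the tables do not name. On a linear scale, less 1, the values were multiples of each library's smallest (whole within 0.01 for 100% of values), and division by it gave reads. No count test was run on them, since the deposited unit is log2. No per-sample column was left unmapped.

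With its trend and robust options, limma 3.58.1 (R 4.3.3) was fitted on the 133 deposited lncRNAs, with Benjamini-Hochberg adjustment over 17743 transcripts, inferred from the deposited ratios of FDR to p (53.4% within 0.0001 of a whole rank), unlisted transcripts given a p of 1. The code was tested on simulated data with a common SD for all transcripts. The deposited values have no common SD, so this checks the code and not the fit to these data. Alternatives were other pseudocounts, size factors, filters and options, a joint fit with the mRNA table, the replicate block and leaving out each rabbit.

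Named lncRNAs are those with an FDR under 0.05, the 10 with most normalized reads, the 10 largest differences among those with arms apart, those sharing a locus, and those beside a listed mRNA. The last was planned within 100 kb, but the table gives no positions, so its own 3 kb column was used. Members and lists were chosen with earlier results of these data known. Intervals of counting are not given, as the depth is unknown. With 3 rabbits per arm, each a separate animal, precision rests on the spread between rabbits.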

Additional observations from a re-analysis of the deposited data

How the results depend on the processing

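The tables hold selected transcripts, so these settings bear on the listed lncRNAs and not on all transcripts; read depth limits the 18 transcripts whose lowest rabbit had under 10 reads. With at least 5 or at least 10 reads required in every rabbit, 48 or 41 of the 59 transcripts were left. At a stricter FDR of 0.01, 9 of the 13 calls in the authors' deposited table were left, beside 36 of the 43 calls over all 133 lncRNAs. Limma's calls adjusted over 17743 transcripts were 0 in all settings run, leaving out 1 rabbit included. That adjustment is strict, with the highest possible p for unlisted transcripts, so the 0 calls do not show that differences are absent. Adjusted over the listed lncRNAs alone limma's calls were also 0, but 36 without ADSC-Exos rabbit 1, 1 without ADSC-Exos rabbit 3, 2 with quantile normalization and 8 with the replicate block. Over all 133 lncRNAs the shares in these settings were 39.1%, 1.50%, 2.26% and 9.77%. The count at an unadjusted limma p under 0.05, 19, was 8 with neither the trend nor the robust option and ranged over 9 to 41 when single rabbits were left out, with 41 after removal of ADSC-Exos rabbit 1; the cause was not tested. It was 28 with the 59 fitted alone, a setting chosen after seeing the data, and 13 to 27 in the other settings. Over the lncRNAs fitted the shares were 20.3% with neither option, 14.3% to 47.4% without single rabbits and 17.3% to 37.6% in the other settings. The 30 transcripts with arms apart were 33 to 49 when single rabbits were left out, a number that cannot drop, and 27 with no size factor. The replicate number as a block gave 0 calls adjusted over 17743 transcripts and 23 at an unadjusted limma p under 0.05, the latter beside 27.1% of all 133 lncRNAs. Deviations from the arm means correlated at 0.027, 0.012 and -0.006 between rabbits with the same number, so no pairing was assumed. The summed reads and the 6 locus sums moved by less than the SD between rabbits in all settings run. Leaving out 1 of 3 rabbits cannot move them further than that, so this does not show that they are stable. The MSTRG.4370 locus difference of 0.27 changed sign, to -0.48 without control rabbit 1 and -0.01 without ADSC-Exos rabbit 3. That of MSTRG.8344, -1.13, was -0.34 without ADSC-Exos rabbit 1. No difference of the 59 changed sign in the 531 comparisons with a pseudocount of 0.1 or 10, no size factor or 1 rabbit left out. With a pseudocount of 10, 11 moved by over 1.5 times, and 23 did so without at least 1 of the rabbits.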
